A study of Mus musculus with 2 samples.

Results

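The miR-181 family was examined in exosomes, small vesicles that cells release, from the serum of mice with subcutaneous Lewis lung carcinoma (LLC, a mouse lung cancer cell line). Its members were taken by name as the 5p arms mmu-miR-181a-5p, mmu-miR-181b-5p, mmu-miR-181c-5p and mmu-miR-181d-5p (mmu for mouse, left out in most places from here on), which are 4 of the 1881 mouse miRNAs on the array. In the LLC group, C57BL/6 mice were injected with 1000000 LLC cells that carried luciferase, and in the MSC+LLC group the LLC cells were mixed with mouse bone marrow mesenchymal stem cells (BMSCs) that had been bought, not taken from the same animals. The labels give serum taken at a mean tumour volume of 200 mm3, where the text of the study speaks of plasma, and an RNA input of 100 ng. Each group was 1 array with no replicate, so no test between the groups was possible, and the labels do not give how many mice gave each sample. By the methods of the study the mice of its allograft experiments were female and 6 weeks old. Both arrays were 1-colour Agilent miRNA arrays.

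miR-181b-5p, miR-181c-5p and miR-181d-5p were detected in serum exosomes of the LLC group. None of the 4 members was detected in those of the MSC+LLC group. The signals were low, with probe means of at most 82.8 intensity units in LLC exosomes. The MSC+LLC array was also much dimmer, with a 75th percentile of 250.3 intensity units against 2883 over the probes that both arrays detected. Whether the members were lower in the MSC+LLC group relative to other miRNAs could therefore not be measured, and the answer changed with the scaling.

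A miRNA directs the silencing of mRNAs that pair with its seed, bases 2 to 8 counted from its 5′ end. The miR-181 family is known for its part in lymphocyte development, where miR-181a sets the sensitivity of the T cell receptor by lowering several phosphatases. It is also expressed in muscle, brain and vessel wall. Each precursor hairpin gives a 5p and a 3p arm, and in this family the 5p arm is usually the main product.

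The mature sequences are shown because the seed defines the family and the remaining bases set how far probes can tell the members apart. They are RefSeq sequences (GRCm38.p6), 5′ to 3′, with the seed in capitals.
miR-181a-5p: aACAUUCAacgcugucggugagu
miR-181b-5p: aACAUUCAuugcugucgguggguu
miR-181c-5p: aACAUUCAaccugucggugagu
miR-181d-5p: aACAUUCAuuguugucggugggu

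All 4 members were matched by name and share the seed. Of the 1679 mature mouse miRNA names in the RefSeq table, no other had these bases 2 to 8. The members fall into close pairs. Counted from the 5′ end of the first named, miR-181a-5p and miR-181c-5p differ by the loss of 1 base (22 of 23 aligned positions identical, 95.7%). miR-181b-5p and miR-181d-5p differ by C12U and 1 base at the 3′ end (91.7% identity). Between the pairs the identity is lower, and miR-181a-5p differs from miR-181d-5p by A9U, C10U, C12U and A21G (82.6%). The probe sequences were not used here, and with members this close, signal from one member on a probe of another cannot be separated. Each value below is therefore uncertain as to the member it belongs to.

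The genes lie in 3 clusters. On chromosome 1, Mir181a-1 (chr1:137966468-137966490 for its 5p arm, plus strand) and Mir181b-1 (chr1:137966650-137966673) have 5p starts 182 bases apart. On chromosome 2, Mir181a-2 (chr2:38852741-38852763, plus strand) and Mir181b-2 (chr2:38853845-38853868) are 1104 bases apart, within the span of the protein-coding gene Nr6a1 and of the lncRNA gene Nr6a1os. On chromosome 8, Mir181c (chr8:84178924-84178945, minus strand) and Mir181d (chr8:84178759-84178781) have 5p arms whose lower coordinates are 165 bases apart. Because miR-181a-5p and miR-181b-5p each come from 2 genes, their signal cannot be assigned to 1 cluster.

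Each array carried 4415 miRNA probes, printed in several spots each. Detection of a probe required over 50% of its kept spots to be well above background. Of all miRNAs, 26.7% passed in LLC exosomes and 13.7% in MSC+LLC exosomes. The lowest detected probe, used below as the detection limit, read 20.9 intensity units for LLC and 18.8 for MSC+LLC. For RNA spike-ins added at labelling the mean log2 ratio (MSC+LLC over LLC) was -1.32, and for those added at hybridization it was 0.038. Since each group was 1 array, array and group cannot be told apart.

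mmu-miR-181d-5p, whose gene is the neighbour of Mir181c, was read by 2 probes. The brighter probe gave 82.8 ± 10.8 intensity units in LLC exosomes (SD over 15 spots, from 59.9 to 100.5) and 8.10 ± 4.04 in MSC+LLC exosomes (SD over 15 spots, from 2.36 to 16.4). On its dimmer probe the readings were 30.6 ± 4.36 in LLC and 4.70 ± 2.63 in MSC+LLC exosomes (14 spots kept of each). In LLC exosomes all spots kept of both probes were well above background, and in MSC+LLC exosomes none was. Before scaling, the spots of the 2 arrays did not overlap for either probe. The MSC+LLC array was dimmer over the shared probes, and the share of all probes without overlap was not counted. Nothing about the member is therefore read from the lack of overlap. The spread over spots is technical, within an array, and does not stand for the spread between mice.

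mmu-miR-181c-5p was close to miR-181d-5p in this pattern. Its brighter probe gave 76.9 ± 4.42 intensity units in LLC exosomes (SD over 14 spots, from 65.4 to 84.0) and 2.83 ± 1.80 in MSC+LLC exosomes (SD over 13 spots, from -0.088 to 5.24). On the dimmer one the readings were 36.4 ± 4.10 in LLC and 0.96 ± 2.76 in MSC+LLC exosomes (15 spots each). Every kept LLC spot of both probes was well above background and no MSC+LLC spot was. Before scaling the spots of the arrays again did not overlap, with the same limit of a dimmer MSC+LLC array.

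mmu-miR-181b-5p was detected in LLC exosomes through 1 of its 2 probes. That probe gave 29.3 ± 5.25 intensity units in LLC exosomes (SD over 15 spots, from 20.2 to 39.0), with 12 spots well above background. In MSC+LLC exosomes it gave 6.79 ± 4.27 (SD over 15 spots, from 1.45 to 16.0), with none. The other probe fell short, with 1 of 15 LLC spots well above background and a range from 8.99 to 22.9 intensity units, against 2.63 ± 4.02 in MSC+LLC exosomes (15 spots, up to 8.94). Unscaled spots of the 2 arrays did not overlap for either probe here too, with the same limit.

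mmu-miR-181a-5p, the member best studied in T cells, was detected on neither array by the rule. Its brighter probe gave 16.7 ± 5.60 intensity units in LLC exosomes (SD over 15 spots, from 2.84 to 24.3), with 1 spot well above background, and 3.14 ± 3.67 in MSC+LLC exosomes (SD over 15 spots). Its dimmer probe was near 0 throughout, at 1.32 ± 2.30 in LLC (12 spots) and -0.69 ± 4.32 in MSC+LLC exosomes (15 spots). The detection flag of the scanner software, a looser rule, called miR-181a-5p detected in LLC exosomes and so counted 4 of 4 members there, but still 0 in MSC+LLC exosomes. Over all miRNAs that flag counted 31.7% for LLC and 16.5% for MSC+LLC. A rule that asked for all spots well above background found 2 members in LLC exosomes (24.1% of all miRNAs) and 0 in MSC+LLC exosomes (11.4%), and one that asked for at least 1 in 4 spots found 3 (28.3%) and 0 (14.7%). Without strong signal on any probe, neither a ratio nor a bound can be given for it.

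**Figure D1:**
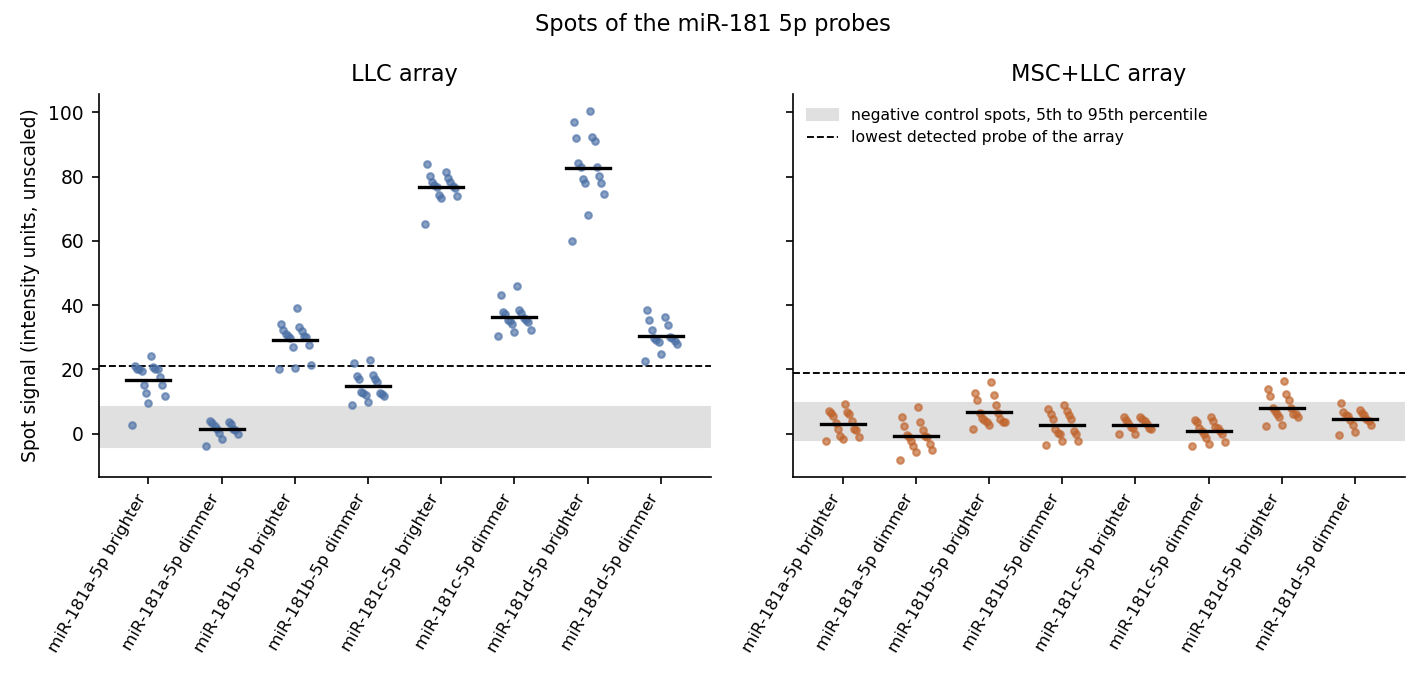
Signal of each kept spot (points, intensity units before scaling) for the 8 probes of the miR-181 5p arms on the LLC array (left) and the MSC+LLC array (right). Black bars are probe means, the grey band spans the 5th to 95th percentile of the negative control spots and the dashed line is the lowest detected probe of that array. On the LLC array 5 probes have means above the line, and on the MSC+LLC array all 8 lie below it.

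Over all 8 probes, 72 of 115 kept spots were well above background in LLC exosomes and 0 of 117 in MSC+LLC exosomes. Among all miRNA spots of each array, 23.25% were well above background in LLC exosomes and 11.48% in MSC+LLC exosomes. All 8 probe means were higher in LLC exosomes before scaling. The MSC+LLC array was dimmer over the shared probes, and the share of all probes brighter in LLC exosomes was not counted. The count of 8 therefore says nothing particular to the family. A weaker criterion of the scanner software, a signal significantly above the local background, was met by 88.7% of the miR-181 spots in LLC exosomes and 47.9% in MSC+LLC exosomes. Among the 1000 negative control spots, which pair with no mouse miRNA, 26.5% met it in LLC exosomes and 48.8% in MSC+LLC exosomes. The members differed on this measure in MSC+LLC exosomes. It was met by 79.3% of the spots of miR-181d-5p and 56.7% of those of miR-181b-5p, above the share of the negative controls, and by 9 of 30 spots of miR-181a-5p and 7 of 28 of miR-181c-5p, below it. The 7 negative control probes had means between 2.87 and 5.49 intensity units on that array. The brighter probes of miR-181b-5p and miR-181d-5p lay above this range at 6.79 and 8.10, by less than the SD of their own spots. That SD is of single spots and does not measure the precision of a probe mean. Both probes of miR-181c-5p lay below it.

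The study asked which exosomal miRNAs change when BMSCs are injected with the cancer cells. To compare the arrays, the signals of each were expressed relative to its own 75th percentile given above. At this scaling a member with the same relative level in both groups would read 7.18 units in MSC+LLC exosomes for the brighter probe of miR-181d-5p, 6.67 for that of miR-181c-5p, 2.54 for that of miR-181b-5p and 1.45 for that of miR-181a-5p. All are under the limit of 18.8, so that no change and a fall would both have read as undetected. The measured means were close to these readings for miR-181d-5p (8.10 ± 4.04), lower for miR-181c-5p (2.83 ± 1.80, with every spot under 6.67) and higher for miR-181b-5p (6.79 ± 4.27) and miR-181a-5p (3.14 ± 3.67). All of these means lie below the detection limit, and no direction is read from them. The brighter probe of miR-181d-5p would have reached the limit only at 2.62-fold its relative level in the LLC group, that of miR-181c-5p at 2.82-fold and that of miR-181b-5p at 7.40-fold. So none of the 3 detected members had a bound on a fall, and a rise smaller than these folds could not have been seen either. Across the array, 43.0% of the miRNAs detected in the LLC group had a scaled LLC signal above the MSC+LLC limit, whereas 0 of the 3 detected miR-181 members did.

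The number of members called lower depended on the scaling. With the 75th percentile of shared probes 0 of 4 were at least 2-fold lower, where the background over the 520 miRNAs with detection in either group was 5.38%. The count was also 0 with the median of shared probes (background 5.19%), quantile normalization (9.23%), the 75th percentile of all probes (28.1%), the labelling spike-ins (45.8%) and all 4 spike-ins together (60.4%). Without scaling 2 of 4 were at least 2-fold lower, against a background of 74.6%, and with the hybridization spike-ins 2 of 4, against 76.2%. In both cases these were miR-181c-5p and miR-181d-5p. With the scanner flag as the detection rule 1 of 4, miR-181c-5p, was at least 2-fold lower at the main scaling, against a background of 30.7%. Under that rule the log2 of its brighter LLC signal over the MSC+LLC limit was 6.22, against -1.49 by the main rule. The limit then lay below its own undetected MSC+LLC means (2.83 and 0.96 intensity units), which set the bound. Negative control spots there averaged 3.70, so no direction is read from this call. All of these counts of lower members are below the background share and say nothing particular to the family. By the main detection rule, 0 was fixed for both 75th percentiles, the median and quantile normalization, where every member's LLC signal lay under the MSC+LLC limit. With the labelling spike-ins 0 was fixed too, since the highest log2 over the limit was 0.82 (miR-181d-5p). No member could count as at least 2-fold higher under any of these scalings, since that needed detection in MSC+LLC exosomes. The background for that count was 16.0% at the main scaling, 17.1% for the median and 14.8% after quantile normalization. It was 8.65% when every probe set the percentile. For spike-ins it was 6.35% (labelling), 2.12% (hybridization) and 3.65% (both kinds), and unscaled signals gave 2.12%.

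The bounds themselves were modest. Without scaling, the mean over both probes gave a bound of at least 2.82-fold for the fall of miR-181c-5p and at least 2.68-fold for that of miR-181d-5p. The brighter probe of miR-181c-5p alone gave at least 4.09-fold, and that of miR-181d-5p at least 4.40-fold. miR-181b-5p was at least 1.56-fold lower, and miR-181a-5p had no bound. With the labelling spike-ins the bounds shrank to at least 1.13-fold for miR-181c-5p and 1.07-fold for miR-181d-5p, and miR-181b-5p had none. With all 4 spike-ins they were at least 1.81-fold for miR-181c-5p and 1.72-fold for miR-181d-5p, and the signal of miR-181b-5p equalled the limit. The brighter probes alone gave at least 2.63-fold for miR-181c-5p and at least 2.83-fold for miR-181d-5p there, so the count of 0 under this scaling holds for the mean over both probes and would be 2 on the brighter probes.

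**Figure D2:**
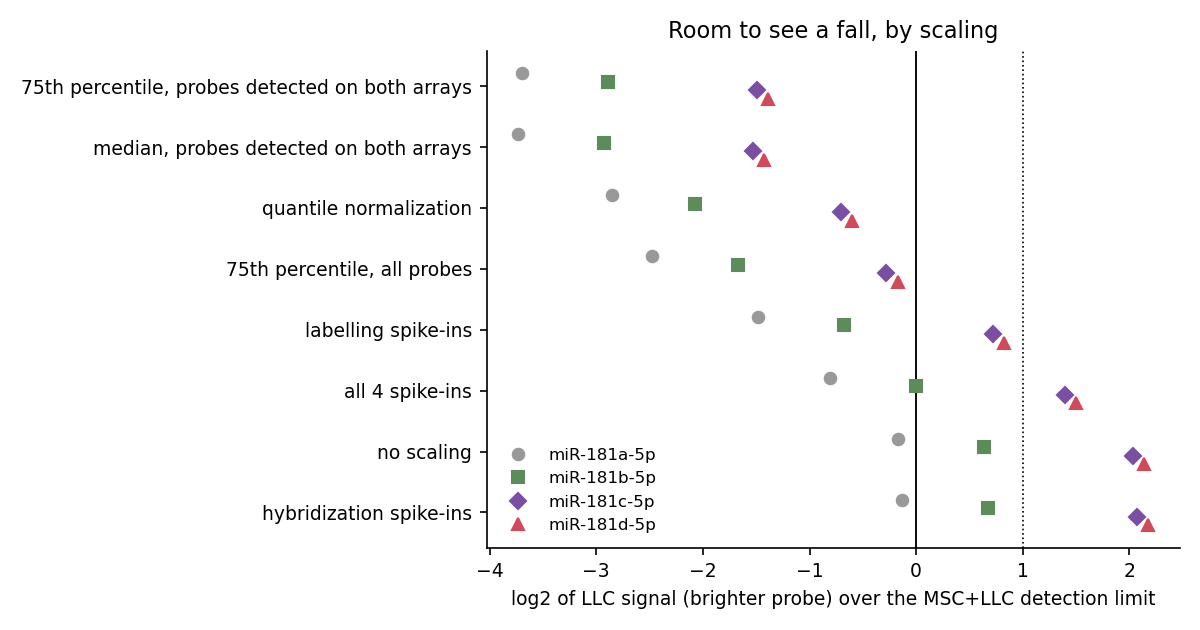
For each scaling between the arrays (rows), the log2 of the LLC signal of a member's brighter probe over the MSC+LLC detection limit. To the left of 0 (solid line) a fall could not be seen, and to the right of 1 (dotted line) the brighter probe alone is at least 2-fold lower, provided the probe was detected. miR-181c-5p and miR-181d-5p move from -1.49 and -1.39 at the top to 2.07 and 2.18 at the bottom, and miR-181a-5p stays below 0 throughout.

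The log2 values deposited by the authors gave another picture of the same signals. Each equalled the summed signal of the miRNA as log2, less a constant of 7.02 (LLC) or 3.48 (MSC+LLC), and an undetected miRNA had been given a summed signal of 0.1. On this scale the LLC values were -4.86 for miR-181a-5p, -3.46 for miR-181b-5p, -2.10 for miR-181c-5p and -2.10 for miR-181d-5p. All 4 members had the same MSC+LLC value, -6.80, which is that of an undetected miRNA. The differences (MSC+LLC minus LLC) were -1.94 for miR-181a-5p, -3.34 for miR-181b-5p, -4.70 for miR-181c-5p and -4.70 for miR-181d-5p. All 4 therefore counted as at least 2-fold lower, as did 57.8% of the 612 miRNAs with a detected value in either group.

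Among miRNAs that the scanner software flagged as detected in MSC+LLC exosomes, the lowest summed signal was 1.28 intensity units (-3.13 on the deposited scale). When this limit stood in for 0.1, miR-181c-5p and miR-181d-5p were each at least 2.03-fold lower. miR-181a-5p and miR-181b-5p had no bound, since their LLC values already lay under that limit. With the limit in place of 0.1, 20.6% of the 612 miRNAs were at least 2-fold lower. The order of the 4 differences thus followed the LLC value alone, because the MSC+LLC value was shared.

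**Figure D3:**
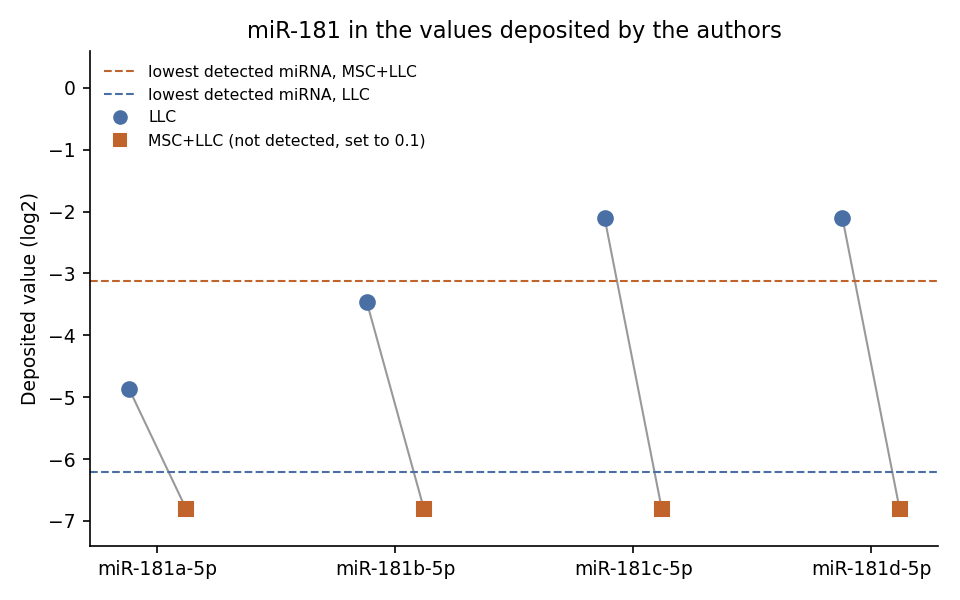
Deposited log2 values of the 4 members in LLC exosomes (circles) and MSC+LLC exosomes (squares). Dashed lines are the lowest miRNA of each array that the scanner flag called detected, -6.21 for LLC and -3.13 for MSC+LLC. The 4 squares share the value -6.80, and 2 of the 4 circles lie above the MSC+LLC line.

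The 3p arms of the same precursors have other seeds and would silence other mRNAs. All 6 are on the array, read by 14 probes, and none was detected on either array. Of their spots, 0 of 174 were well above background in LLC exosomes and 0 of 177 in MSC+LLC exosomes. The arm that came nearest was miR-181a-1-3p, the partner strand of miR-181a-5p in Mir181a-1. Its probes gave 14.7 ± 5.08 and 10.9 ± 5.29 intensity units in LLC exosomes and 3.92 ± 3.77 and 0.23 ± 2.36 in MSC+LLC exosomes (SD over 15 spots for each). The scanner software flagged it as detected in LLC exosomes. Its sequence is shown beside that of the 5p arm above, with the seed in capitals, because the Mir181a-1 hairpin gives both arms. The brighter probe of each read low in LLC exosomes (16.7 intensity units for miR-181a-5p and 14.7 for miR-181a-1-3p), and the dimmer probes differed (1.32 and 10.9).
miR-181a-1-3p: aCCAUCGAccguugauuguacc

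miR-181d-3p gave at most 6.63 ± 2.89 intensity units (SD over 14 spots, LLC array). The probes of miR-181a-2-3p, miR-181b-1-3p, miR-181b-2-3p and miR-181c-3p had means below 0 after background subtraction on both arrays. In the deposited values, 5 of the 6 arms were undetected on both arrays and so showed a difference of 3.54 (MSC+LLC minus LLC), which comes from the constants alone.

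**Figure D4:**
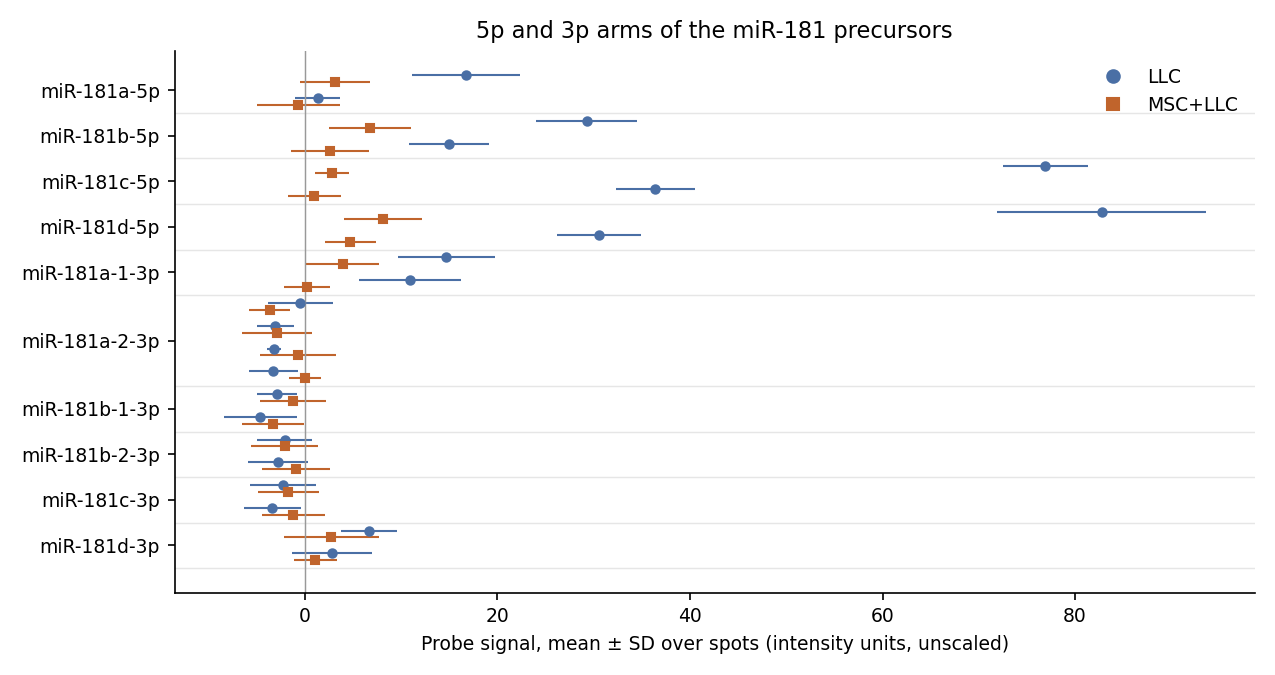
Mean signal of every probe of the 5p and 3p arms (points, error bars are the SD over spots, intensity units before scaling) on the LLC array (circles) and the MSC+LLC array (squares). The 5p arms of miR-181b, miR-181c and miR-181d hold the 5 detected probes, all on the LLC array, and the 3p arms lie near 0 apart from miR-181a-1-3p.

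Other families with a shared seed were followed on these arrays. All 5 members of the miR-30 family, which is widely expressed, were detected on both arrays, with a median log2 ratio of -0.086 (from -0.30 to 1.22) at the main scaling. In the let-7 and miR-98 family, known as repressors of growth genes, all 9 were detected in LLC exosomes and 7 in MSC+LLC exosomes. Among those 7 the median log2 ratio was -1.70 (from -2.23 to -0.60), and 6 were at least 2-fold lower. Over all 240 miRNAs measured on both arrays the median was 0.15 and 11.3% were at least 2-fold lower. Detection in the LLC group only, seen for 3 of the 4 miR-181 members, was shared by let-7e-5p and miR-98-5p. It was seen for 262 of the 502 miRNAs detected in LLC exosomes, or 13.9% of all on the array. Most miRNAs on the array (1361 of 1881) were detected in neither group. No test of the difference between families was possible with 1 array per group.

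**Figure D5:**
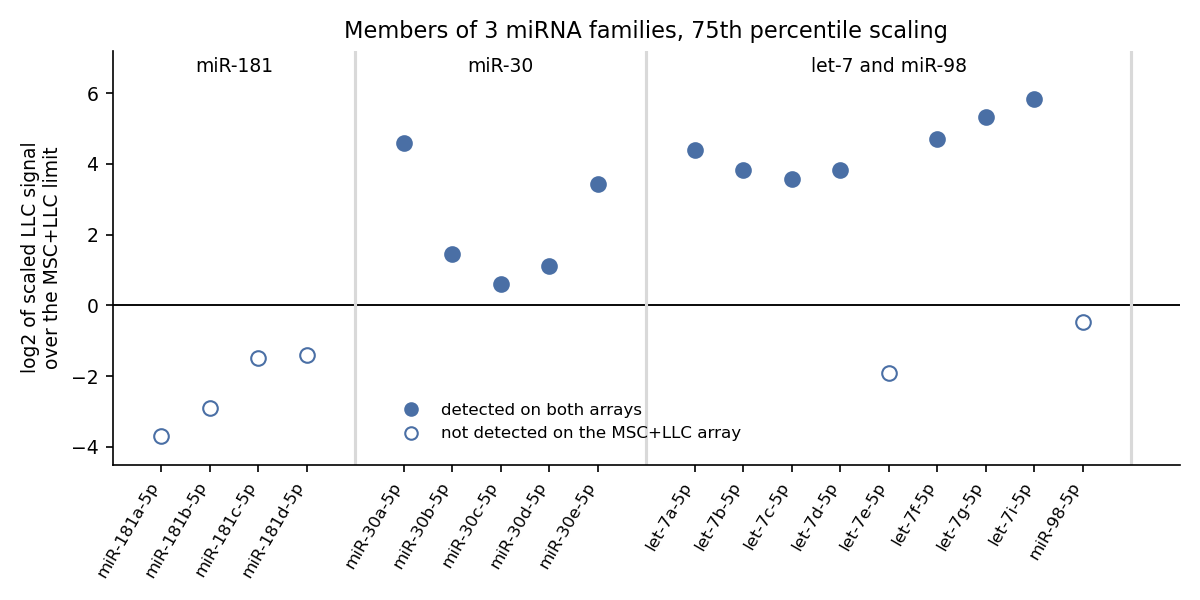
For members of 3 families, the log2 of the scaled LLC signal (brightest probe) over the MSC+LLC detection limit. Filled points were detected on both arrays and open points lacked detection in MSC+LLC exosomes. All members above 0 were detected on both arrays and all below 0 were not; heights of different miRNAs are not comparable as amounts, since probes differ in brightness.

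Markers of the cells that could feed serum exosomes were read as whole lists. Of 6 leukocyte miRNAs, 6 were detected in LLC exosomes and 4 in MSC+LLC exosomes, and the summed signal of their brightest probes was 23475 and 2154 intensity units before scaling. miR-150-5p, abundant in lymphocytes, and miR-155-5p, induced in activated leukocytes, were detected in LLC exosomes only, as miR-181b-5p, miR-181c-5p and miR-181d-5p were. Their brightest probes gave 184.9 and 50.4 intensity units in LLC exosomes and 19.5 and 3.56 in MSC+LLC exosomes. The 19.5 of miR-150-5p lay above the limit of 18.8, though the probe did not pass the detection rule. Detection in LLC exosomes only was also seen for miR-194-5p (hepatocyte list) and miR-143-3p (mesenchymal list), and for 262 of the 502 miRNAs detected in LLC exosomes (13.9% of all miRNAs). miR-142a-3p, made across blood cell types, had a scaled log2 ratio of -2.25, and miR-223-3p, a marker of myeloid cells, had 0.14. The others of this list, miR-142a-5p and miR-146a-5p, had -2.12 and 0.13. All 4 erythroid miRNAs were detected on both arrays, with summed signals of 88920 and 17572, mostly from miR-451a (67741 and 15004). Their scaled log2 ratios split, with 1.06 for miR-451a and 1.66 for miR-486a-5p, against -2.33 for miR-144-3p and -2.33 for miR-144-5p. Of 8 mesenchymal stromal miRNAs 6 and 5 were detected, with summed signals of 10460 and 1123, and of 3 hepatocyte miRNAs 3 and 2, with 5396 and 465.4. Each summed signal was lower on the dimmer MSC+LLC array. The part of these cells in the miR-181 signal was not tested. In serum exosomes, fewer vesicles from a cell type and less of a miRNA per vesicle cannot be told apart.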

How the data were processed

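Serum exosomal RNA of 1 LLC and 1 MSC+LLC sample was hybridised to Agilent mouse miRNA arrays (Cy3), with groups taken from the sample labels. The deposited scanner files hold background-subtracted, detrended spot intensity, unscaled between arrays (the headers name Feature Extraction 11.5.1.1, the submitters' notes 10.7). The log2 values that the authors deposited came from GeneSpring GX 11.0, with settings for these arrays not given in the sources used here (the study names quantile normalization for its cultured BMSCs). Outlier spots (3.04% and 2.95%) were left out, no spot was saturated, and the remaining spots were averaged per probe. For a probe detected in the LLC group only, the bound was its scaled signal over the higher of its own MSC+LLC signal and the lowest detected MSC+LLC probe, averaged over detected probes as log2, with none given below 1-fold. Precision between mice is unknown with 1 array per group, and no p-value was computed. Names, sequences and coordinates came from RefSeq tables (GRCm38.p6).

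The members and lists were chosen with earlier results of these data known. The text names the members, the 3p arms of their precursors and miRNAs of the comparison families and marker lists. The miRNAs nearest in ratio to each member were also to be named, but no member had a ratio. Alternatives covered scaling, probe summary, outlier spots, median of spots, normexp (offset 50), detection rules, fold thresholds and the deposited values. The functions were tested on simulated data with changes set only in miRNAs much brighter than the members. That test required only a small median error of the ratios, so it does not cover detection or bounds near the limit. Calculations ran in Python 3.11.15 (numpy 2.4.6, pandas 2.3.3), with figures from matplotlib 3.10.9. Normexp came from limma 3.58.1 in R 4.3.3.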

Additional observations from a re-analysis of the deposited data

How the results depend on the processing

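No paired analysis was possible because there is 1 array in each group. The count of miR-181 members at least 2-fold lower was 0 at the main setting, 2 without scaling, 2 with the hybridization spike-ins, 1 (miR-181c-5p) with the scanner flag for detection and 4 in the deposited values. With the scanner flag 188 of 612 miRNAs were at least 2-fold lower, against 28 at the main setting. Both counts of 2 follow from the scale factor. In the deposited values the calls of miR-181a-5p and miR-181b-5p rest on the 0.1 given to undetected miRNAs. When the lowest summed signal flagged as detected in MSC+LLC exosomes replaced it, miR-181c-5p and miR-181d-5p were at least 2.03-fold lower. With that replacement 20.6% of the 612 miRNAs were at least 2-fold lower. These 2 bounds rest on the scanner flag. With summed signals under the main detection rule neither member had a bound (log2 of LLC signal over the limit -0.22 for each). With the flag, dimmer probes count as detected, which lowers the MSC+LLC limit below the undetected readings of miR-181c-5p. The count was 0 in the other alternatives and at fold thresholds of 1.5 and 4. At the main setting no member had a bound, so no threshold could change it. The count of members at least 2-fold higher was 0 in all, which was fixed by the lack of detection in the MSC+LLC group. Of the members 3 were detected in the LLC group, with 2 when all spots had to be well above background (24.1% of all miRNAs) and 4 with the scanner flag (31.7%), and 0 in the MSC+LLC group under every rule. Signal over background limits all 4 members, none of which had a probe above the limit on the MSC+LLC array.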
